A study of Mus musculus with 10 samples.

Results

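The complement and coagulation genes described here are 33 named genes, and all 33 are among the 16667 genes with normalized counts and the 29242 genes with TPM (a share of all transcripts, corrected for gene length). They were chosen by name, matched to the gene symbols of both tables, and 32 of them had a mean normalized count of at least 10 and were tested. The RNA was taken from the visceral fat of C57BL/6 mice, wild type and 10 weeks old. The sample titles carry gwat, taken to mean the gonadal white depot. One group of 5 mice had sham surgery and the other group of 5 had pancreatic tumours of the KPC type placed in the pancreas (orthotopic). KPC tumours stem from a genetic mouse model of pancreatic cancer. The tumour cell clone and the time after surgery are not stated in the labels. The labels list 10 separate samples, taken here as 10 mice, and p-values measure only the spread between these samples.

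Complement is a chain of plasma proteins that tags particles for uptake and punctures membranes. C1q, mannose-binding lectins or spontaneous turnover start it, every route meets at C3, and the fragments C3a and C5a call in myeloid cells. Coagulation runs from tissue factor through factors VII and X to thrombin and fibrin, and plasmin, made from plasminogen by Plat or Plau, dissolves the clot. The liver makes most of these plasma proteins, while macrophages are known for C1q and properdin, and fat cells for adipsin (Cfd), the protease that starts the alternative route.

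The sequences just upstream of 6 genes are shown. C1qb and C1qc were taken because the C1q chains stood higher together, and C1qa is not printed. C3 and C1s1 were taken because they carry the same short motif. F10 and F7 were taken because they are neighbours that differed in level. The sequences are from RefSeq on GRCm38.p6, written 5′ to 3′ on the gene's own strand. They hold only bases before both the RefSeq start and the GENCODE vM21 gene start.
C1qb (chr4:136886201-136886450, minus strand, 250 bases): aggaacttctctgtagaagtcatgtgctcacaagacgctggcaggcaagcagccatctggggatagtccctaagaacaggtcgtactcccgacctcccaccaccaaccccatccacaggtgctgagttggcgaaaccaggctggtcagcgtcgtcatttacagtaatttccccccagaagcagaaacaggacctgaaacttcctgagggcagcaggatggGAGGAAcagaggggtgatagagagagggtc
C1qc (chr4:136893066-136893164, minus strand, 99 bases): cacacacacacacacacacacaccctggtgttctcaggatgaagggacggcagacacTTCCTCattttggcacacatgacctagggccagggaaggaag
C1s1 (chr6:124542360-124542609, minus strand, 250 bases): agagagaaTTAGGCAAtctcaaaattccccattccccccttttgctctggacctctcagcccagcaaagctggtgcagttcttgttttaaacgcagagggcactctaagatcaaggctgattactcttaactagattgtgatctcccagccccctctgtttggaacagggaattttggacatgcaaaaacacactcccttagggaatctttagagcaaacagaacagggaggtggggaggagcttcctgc
C3 (chr17:57228137-57228386, minus strand, 250 bases): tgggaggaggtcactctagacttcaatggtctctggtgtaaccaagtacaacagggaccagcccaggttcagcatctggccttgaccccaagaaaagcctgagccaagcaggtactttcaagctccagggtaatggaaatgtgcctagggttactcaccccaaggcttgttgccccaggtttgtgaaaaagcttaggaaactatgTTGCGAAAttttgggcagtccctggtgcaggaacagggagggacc
F10 (chr8:13037058-13037307, plus strand, 250 bases): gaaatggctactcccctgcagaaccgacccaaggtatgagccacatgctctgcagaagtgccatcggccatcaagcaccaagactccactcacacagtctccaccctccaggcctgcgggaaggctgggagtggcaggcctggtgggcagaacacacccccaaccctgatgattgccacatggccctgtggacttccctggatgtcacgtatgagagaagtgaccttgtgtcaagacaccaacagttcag
F7 (chr8:13025784-13026033, plus strand, 250 bases): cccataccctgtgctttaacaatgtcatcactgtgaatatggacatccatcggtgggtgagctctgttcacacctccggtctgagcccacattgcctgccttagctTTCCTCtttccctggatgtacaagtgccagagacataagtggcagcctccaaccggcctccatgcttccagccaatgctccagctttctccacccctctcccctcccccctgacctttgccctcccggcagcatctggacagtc

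Capitals mark matches to 2 motifs on either strand: GAGGAA, the core bound by the myeloid factor PU.1, in C1qb, C1qc and F7, and TTGCNNAA, a form of the C/EBP site, in C3 and C1s1. A shorter C1s1 stretch from another RefSeq window (chr6:124542360-124542571, 212 bases), not printed, held no match. RefSeq windows around the start, all of the same length, were found for 24 of the 33 members. These 24 members had 27 windows. GAGGAA was present in 11 of the 27, from 9 members, and in 28.3% of all 32851 windows. C1qa was not among these 9 members. TTGCNNAA was present in 5 of the 27, from C1ra, C1s1, C3, Plaur and Procr, and in 10.8% of all windows. The STAT form TTCNNNGAA was found in 3 of the 27 (8.30% of all windows). A site of the interferon regulatory factors was found in 1 (3.44%) and an NF-kB site in 0 (0.411%). GAGGAA, TTGCNNAA and TTCNNNGAA do not contain each other, and a match describes letters only.

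Library totals were 20941242 to 24449863 normalized counts. KPC mouse 1 stood apart: mitochondrially encoded genes took 15.7% of its TPM against 26.3% to 33.3% in the other 9 libraries, and its median correlation with the others was 0.908 against 0.939 to 0.959. Where it carries much of a value, the value without it is mostly given beside it. Adipocyte markers summed to 24051 to 32348 TPM in sham mice and 23446 to 28833 TPM in KPC mice, most of it Fabp4. By mean TPM, only 1 of the 6 was higher in KPC mice, but log2 differences were positive for 3 and negative for 3 (median -0.0921). At an unadjusted p under 0.05 by limma, 1 was lower. Plin1 averaged 132 TPM (sham) against 95.4 TPM (KPC). Group means were close for Fabp4, 18041 (sham) against 17647 TPM (KPC), and for Adipoq, 4290 (sham) against 4264 TPM (KPC). All 5 skeletal muscle markers had a lower KPC mean, with sums of 42.2 to 3092 TPM in sham mice and 49.4 to 175 TPM in KPC mice, as had all 4 smooth muscle markers, with sums of 339 to 2449 TPM and 229 to 995 TPM. Sham mouse 5 was highest for both. Red cell markers averaged 9217 TPM in sham mice and 18210 TPM in KPC mice, or 12585 TPM without KPC mouse 1. The part of these lists in the results was not tested.

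Most complement genes of the early steps stood higher in the fat of tumour-bearing mice, while the clotting, anticoagulant and fibrinolytic genes were mixed. C4b was 2.67-fold, C1qb 2.21-fold, C1qa and C5ar1 2.11-fold, C3 1.83-fold and Cfb 1.67-fold the sham level. F10, at a low level, was 4.59-fold the sham level, and Cd55 and Anxa2 were 0.773 and 0.739 of it. All folds come from differences of log2(normalized count + 1). The summed TPM of all 33 members was 2781 to 4431 in sham and 4112 to 6826 in KPC mice, and the groups overlapped only through sham mouse 5 and KPC mouse 5. In bulk tissue, fewer cells of a type and less RNA per cell cannot be told apart.

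By limma with adjustment over all 14203 genes tested, 0 of the 32 members passed in either direction, where 0.0493% of all genes were called higher and 0.00704% lower. The smallest adjusted p was 0.0885, for C4b. At an unadjusted p under 0.05, 16 members were higher, against 7.61% of all genes, and 2 were lower, against 5.91%. The lowest of the 5 KPC mice exceeded the highest of the 5 sham mice for 7 members (C1qa, C1qb, C1qc, C4b, Cfb, C5ar1 and F10), where 2.75% of all genes did so. The reverse held for 0 members and for 1.28% of all genes. That count of 7 was 12 without sham mouse 5 (4.47% of all genes) and 13 without KPC mouse 5 (4.3%). Without KPC mouse 1, 4 members were called higher, C1qa, C1qb, C5ar1 and F10, where 0.465% of all genes were. The median log2 difference was 0.39 over the 32 members and -0.02 over all genes, with 24 members positive and 8 negative. The members were chosen with earlier results of these data known, so these shares describe the list.

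**Figure D1:**
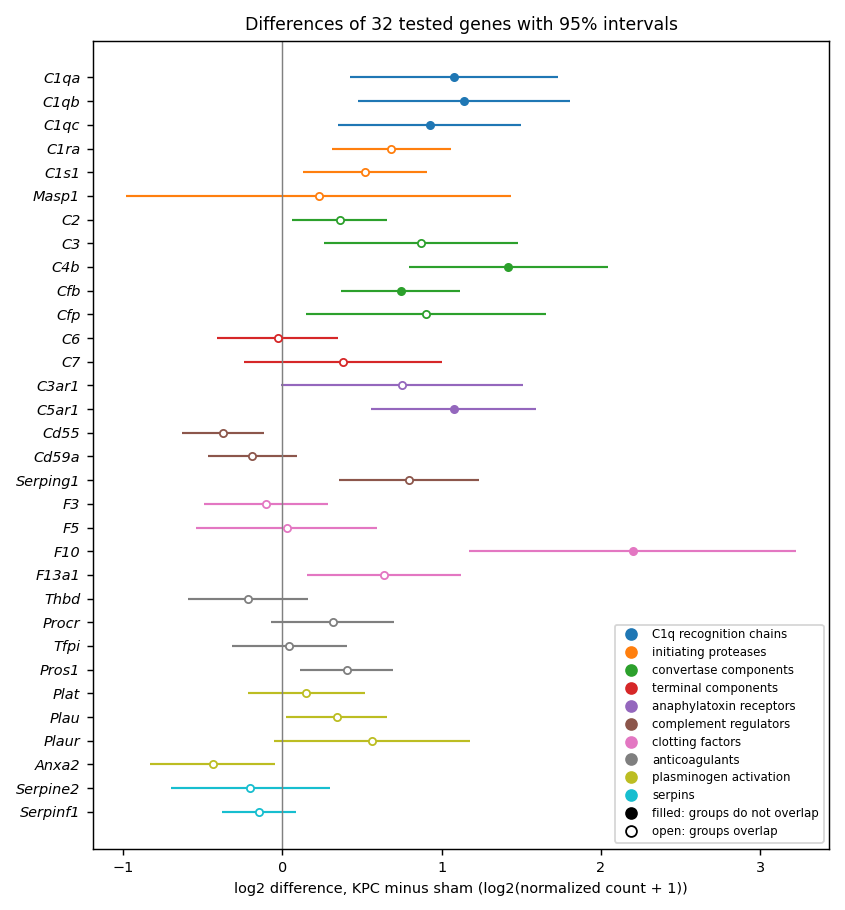
The horizontal axis gives the log2 difference of KPC minus sham on the log2(normalized count + 1) scale, with limma's 95% interval as bars, for the 32 tested genes ordered and coloured by role. Filled points mark the 7 genes whose groups do not overlap; F10 lies farthest right at 2.20 and Anxa2 farthest left at -0.44.

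The 3 chains of C1q, which together form the recognition molecule of the classical route, stood higher in every KPC mouse. C1qa stood at 160, 208, 212, 180 and 252 TPM in sham mice 1 to 5 and at 982, 330, 311, 397 and 298 TPM in KPC mice 1 to 5. The lowest KPC value lay above the highest sham value, and KPC mouse 1 lay far above the other 4. C1qb stood at 133, 172, 173, 143 and 200 TPM in sham mice and at 849, 297, 258, 329 and 247 TPM in KPC mice. C1qc stood at 119, 151, 157, 133 and 189 TPM in sham mice and at 564, 222, 221, 290 and 194 TPM in KPC mice. In all 3 the groups were apart, by the smallest margin in C1qc, between sham mouse 5 and KPC mouse 5.

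The folds were 2.11 (95% interval 1.34 to 3.32) for C1qa, 2.21 (1.39 to 3.50) for C1qb and 1.90 (1.28 to 2.82) for C1qc. Their limma adjusted p-values were 0.191, 0.180 and 0.198. Without KPC mouse 1 the folds were 1.68, 1.75 and 1.57, and the adjusted p-values 0.0238, 0.0168 and 0.0598. The 3 genes lie side by side on the minus strand of chromosome 4 (GRCm38, GENCODE vM21): C1qb (ENSMUSG00000036905) at 136880129 to 136886187, C1qc (ENSMUSG00000036896) at 136889804 to 136893065 and C1qa (ENSMUSG00000036887) at 136895917 to 136898803. Gaps of 3616 and 2851 bases separate them.

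The proportions of the chains varied less between libraries than their levels. The TPM ratio of C1qb to C1qa was 0.794 to 0.831 in sham and 0.828 to 0.901 in KPC mice. That of C1qc to C1qa was 0.723 to 0.749 in sham and 0.651 to 0.730 in KPC mice 2 to 5, and 0.575 in KPC mouse 1. KPC mouse 1 thus had the lowest share of the third chain.

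Macrophage markers moved with C1q. The 10 macrophage markers summed to 601 to 1008 TPM in sham mice and 961 to 4127 TPM in KPC mice. Without KPC mouse 1 the KPC sums were 961 to 1451 TPM, and with all mice 10 of 10 markers had a higher KPC mean. Most of the sum was Lyz2, whose mean made up 494 of 785 TPM for sham and 1296 of 1773 TPM for KPC. In KPC mouse 1 it was 3307 of 4127 TPM. The ratio of C1qa to Adgre1, the macrophage antigen F4/80, was 9.86 to 12.6 in sham, 10.1 to 13.7 in KPC mice 2 to 5 and 21.6 in KPC mouse 1. The 6 monocyte markers summed to 58.8 to 100.3 TPM in sham mice and 111 to 717 TPM in KPC mice, or 111 to 178 TPM without KPC mouse 1, with 6 of 6 higher on average. None of these 16 markers was at 0 throughout, and their part in the C1q difference was not tested.

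C1ra and C1s1, the proteases that C1q switches on, were higher with overlap between groups. C1s1, the most abundant of this role, stood at 109.5, 163, 209, 171 and 236 TPM in sham mice and at 226, 198, 263, 334 and 205 TPM in KPC mice. C1ra stood at 41.0, 62.9, 79.2, 59.9 and 84.1 TPM in sham mice and at 93.3, 88.1, 113, 133 and 79.5 TPM in KPC mice. KPC mouse 4 was highest for both and sham mouse 1 lowest. The folds were 1.43 (95% interval 1.09 to 1.87) for C1s1 and 1.61 (1.24 to 2.08) for C1ra, with limma adjusted p-values of 0.277 and 0.152. They are neighbours on chromosome 6, 6901 bases apart on opposite strands, and each has a near copy, C1s2 and C1rb, so that reads divided between copies leave their levels uncertain. C1s2 stood at 0.203 ± 0.083 TPM in sham mice and 0.436 ± 0.228 TPM in KPC mice (SD, n = 5 each), and C1rb at 0 to 0.138 TPM over all libraries. Masp1, the protease of the lectin route, was barely detected, at 0.0440 to 0.190 TPM in sham mice and 0.0383 to 0.156 TPM in KPC mice.

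All 5 genes of the C3 convertases and their stabiliser were higher at an unadjusted p under 0.05. C3, the protein where the routes meet, had the highest level of any member, at 582, 890, 804, 669 and 1007 TPM in sham mice and at 1127, 1159, 2220, 1941 and 911 TPM in KPC mice. KPC mice 3 and 4 were highest, and KPC mouse 5 lay within the sham range. The fold was 1.83 (95% interval 1.201 to 2.79), with a limma adjusted p of 0.252, and 1.91 without KPC mouse 1. C3 and the C1q chains thus differed in which mice were highest.

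C4b, whose product joins C2 in the classical convertase, stood at 89.7, 198, 228, 166 and 324 TPM in sham mice and at 600, 461, 351, 689 and 397 TPM in KPC mice. The groups did not overlap, with sham mouse 5 nearest to KPC mouse 3. Its fold was 2.67 (95% interval 1.74 to 4.12), and 2.50 with an adjusted p of 0.0893 without KPC mouse 1. Its near copy C4a was not analysed here, so the C4b level may include reads of it. Cfb, the protease of the alternative convertase, stood at 89.8, 103, 142, 120 and 146 TPM in sham mice and at 272, 173, 153, 227 and 164 TPM in KPC mice. Its groups did not overlap, with a fold of 1.67 (95% interval 1.29 to 2.16) and a limma adjusted p of 0.119. The fold was 1.52 without KPC mouse 1.

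C2, the protease partner of C4b, stood at 62.0, 83.5, 106, 85.6 and 112 TPM in sham mice and at 104, 109, 116, 137 and 90.7 TPM in KPC mice, and the groups overlapped. Its fold was 1.28 (95% interval 1.04 to 1.58), with a limma adjusted p of 0.300. C4b (ENSMUSG00000073418, 34728380 to 34743882), Cfb (ENSMUSG00000090231, 34856374 to 34862518) and C2 (ENSMUSG00000024371, 34862604 to 34898265) share the minus strand of one stretch of chromosome 17, with 85 bases between Cfb and C2. Cfp, properdin, which stabilises the alternative convertase, stood at 45.1, 78.5, 57.0, 39.8 and 73.1 TPM in sham mice and at 258, 88.3, 73.3, 103 and 69.4 TPM in KPC mice. Its fold was 1.87 (95% interval 1.11 to 3.15) with a limma adjusted p of 0.306, and 1.47 without KPC mouse 1, which was the highest by far.

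The macrophage and monocyte sums given beside C1q had higher KPC means, as had the neutrophil, platelet and red cell sums. Fibroblast and progenitor markers summed to 744 to 2100 TPM in sham mice and 1230 to 1945 TPM in KPC mice, with 2 of 6 higher. Hepatocyte markers summed to 15.5 to 25.8 TPM in sham mice and 8.61 to 15.6 TPM in KPC mice, with 2 of 6 higher and Fgb at no more than 0.319 TPM. Ttr was at 0 in 9 of 10 libraries. The part of any cell type in the C3, C4b and Cfb differences was not tested.

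**Figure D2:**
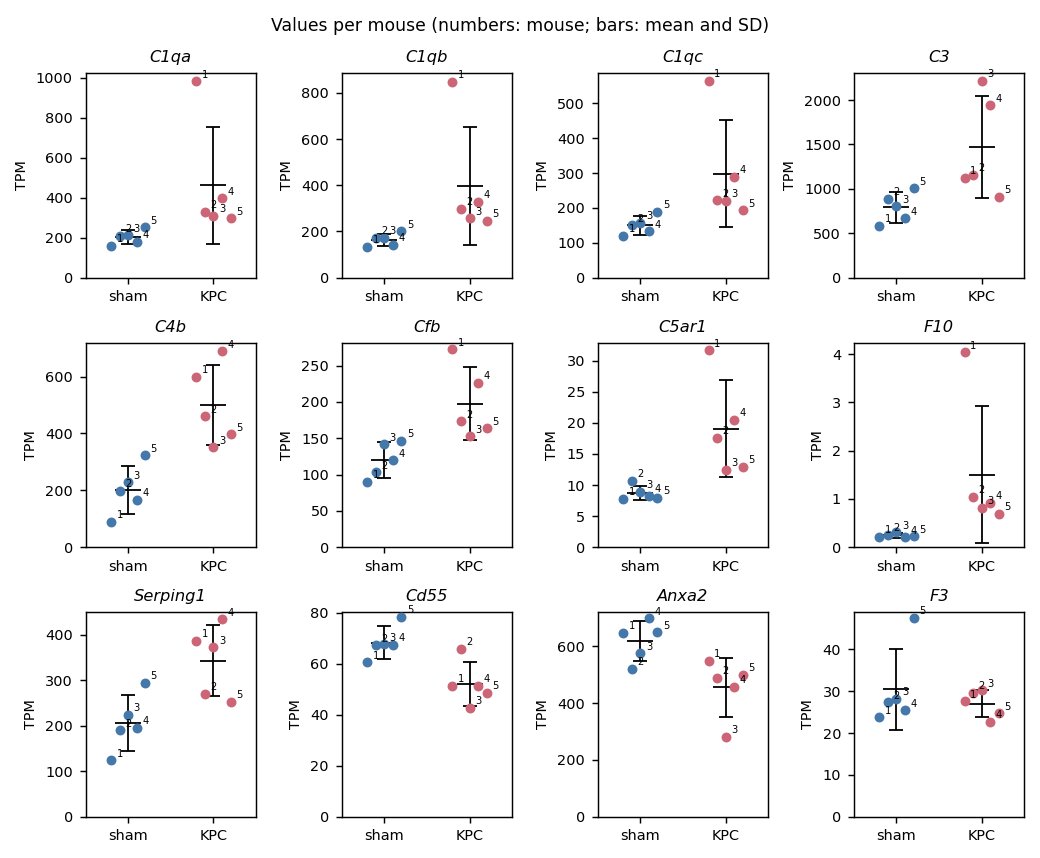
Each panel plots the TPM of 1 gene in the 5 sham and 5 KPC mice, numbered, with the mean and SD as bars and the axis starting at 0. C1qa, C1qb, C1qc, C4b, Cfb, C5ar1 and F10 show no overlap between groups, KPC mouse 1 lies above the other KPC mice for the C1q chains, C5ar1 and F10, and KPC mice 3 and 4 are highest for C3.

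The 2 membrane attack members did not follow the early genes. C6 stood at 29.1, 23.1, 22.1, 29.0 and 35.0 TPM in sham mice and at 30.15, 19.8, 21.0, 36.0 and 26.9 TPM in KPC mice, with a fold of 0.980 (95% interval 0.753 to 1.28). C7 stood at 0.862 to 1.76 TPM in sham mice and at 1.26 to 2.77 TPM in KPC mice, with KPC mice 3 and 4 above all others, and a fold of 1.30 (0.845 to 2.01). The intervals include 1 and leave room for modest changes either way. C8g, outside the member list, stood at 2.66 to 4.30 TPM in sham mice and 2.77 to 5.10 TPM in KPC mice. Its fold was 1.06 (95% interval 0.776 to 1.46). The remaining terminal genes were at or near 0. C5 (symbol Hc) reached at most 0.186 TPM, C9 0.0783 TPM and C8a 0.0708 TPM, and C8b was listed at 0 in all 10 libraries.

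C5ar1 and C3ar1 encode the receptors through which C5a and C3a act on myeloid cells. C5ar1 stood at 7.83, 10.7, 8.95, 8.25 and 7.996 TPM in sham mice and at 31.7, 17.6, 12.4, 20.5 and 12.9 TPM in KPC mice, with no overlap. Its fold was 2.11 (95% interval 1.47 to 3.02) with a limma adjusted p of 0.111, and 1.81 with an adjusted p of 0.0483 without KPC mouse 1. C3ar1 stood at 3.89, 4.54, 4.98, 3.15 and 5.60 TPM in sham mice and at 17.7, 7.04, 5.14, 7.19 and 4.03 TPM in KPC mice. Here the groups overlapped, and the fold of 1.68 (0.993 to 2.84) was 1.32 without KPC mouse 1. Neutrophil markers summed to 13.3 to 58.4 TPM in sham mice and 17.8 to 252 TPM in KPC mice, with 6 of 6 higher on average. The KPC mean of 85.3 TPM was 43.7 TPM without KPC mouse 1, and KPC mice 4 and 5 lay within the sham range. Macrophage and monocyte sums are those given beside C1q. Of the defining neutrophil markers, Ly6g was at 0 in 4 sham and 3 KPC libraries. Their part in the receptor differences was not tested.

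Of the 3 regulators, 1 was higher and 1 lower at an unadjusted p under 0.05. Serping1, the secreted inhibitor of C1r, C1s and the contact proteases, stood at 124, 190, 224, 195 and 294 TPM in sham mice and at 386, 269, 372, 434 and 252 TPM in KPC mice. KPC mice 1, 3 and 4 lay above every sham mouse, and the fold was 1.73 (95% interval 1.28 to 2.35) with a limma adjusted p of 0.157. Cd55, the membrane protein that breaks up convertases, stood at 60.6, 67.25, 67.7, 67.5 and 78.4 TPM in sham mice and at 51.3, 65.95, 42.7, 51.3 and 48.6 TPM in KPC mice. Every KPC mouse except KPC mouse 2 lay below every sham mouse, and the fold was 0.773 (0.648 to 0.923) with a limma adjusted p of 0.251. Cd59a, which blocks the membrane attack pore on cells, stood at 118 ± 16.5 TPM in sham mice and 102 ± 20.3 TPM in KPC mice (SD, n = 5 each), a fold of 0.878 (0.722 to 1.07). Cd55b and Cd59b are related copies, and Cd55b reached at most 0.473 TPM.

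**Figure D3:**
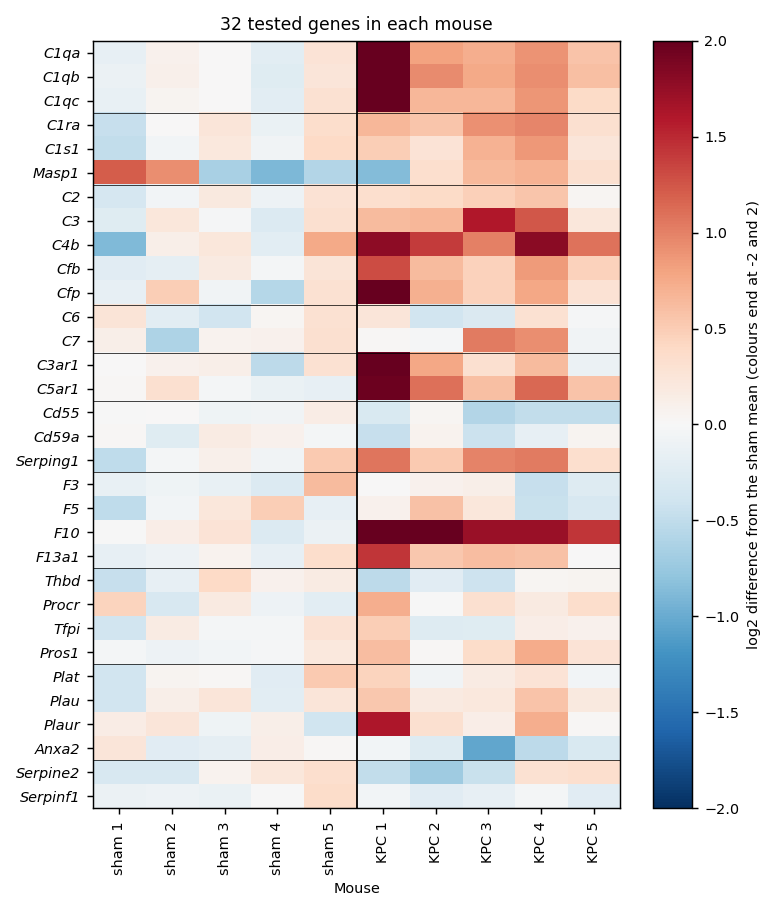
Rows are the 32 tested genes in order of role and columns the 10 mice; colour gives the log2 difference from the sham mean, red above and blue below, with colours ending at -2 and 2. The C1q chains, C1ra, C1s1, the 5 convertase genes, C5ar1, Serping1, F10, F13a1, Pros1, Plau and Plaur lie above the sham mean in all 5 KPC columns, Anxa2 and Serpinf1 below it in all 5, and the other rows are mixed.

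Among the clotting factors, F10 and F13a1 were higher and F3 and F5 showed no difference beyond the spread. F10, factor X, stood at 0.212, 0.261, 0.313, 0.203 and 0.229 TPM in sham mice and at 4.04, 1.05, 0.812, 0.917 and 0.695 TPM in KPC mice. The groups did not overlap, and even the lowest KPC value was above the highest sham value. Its fold was 4.59 (95% interval 2.26 to 9.34) with a limma adjusted p of 0.102, and 3.34 with an adjusted p of 0.0411 without KPC mouse 1. The mean normalized count of F10 was 33.9, so each value rests on few counts. F7, whose gene lies 1498 bases before F10 on the plus strand of chromosome 8, was too low to test: it stood at 0.0366 to 0.129 TPM in sham, 0.0355 to 0.272 TPM in KPC mice 2 to 5 and 2.24 TPM in KPC mouse 1.

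F13a1, the subunit of factor XIII that crosslinks fibrin and is made by macrophages and platelets, stood at 54.1, 62.8, 75.6, 63.2 and 90.2 TPM in sham mice and at 172, 93.9, 98.0, 108 and 69.0 TPM in KPC mice. Only KPC mouse 5 lay within the sham range, and the fold was 1.55 (95% interval 1.11 to 2.17) with a limma adjusted p of 0.280, and 1.35 without KPC mouse 1. Platelet markers summed to 135 to 195 TPM in sham mice and 144 to 423 TPM in KPC mice, or 144 to 237 TPM without KPC mouse 1, with 6 of 6 higher on average, though Gp9 reached at most 2.43 TPM and Gp5 0.163 TPM. The platelet sum was almost all Pf4, whose mean made up 160 of 164 TPM for sham and 219 of 228 TPM for KPC. It therefore mainly reflects that 1 gene. The part of the platelet markers in the F13a1 difference was not tested.

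F3, tissue factor, the trigger of clotting, stood at 23.8, 27.4, 28.2, 25.4 and 47.5 TPM in sham mice and at 27.6, 29.7, 30.3, 22.7 and 24.7 TPM in KPC mice. The groups overlapped throughout, with sham mouse 5 highest, and the fold was 0.932 (95% interval 0.711 to 1.22). F5, the cofactor of factor X, stood at 0.277 to 0.654 TPM in sham mice and 0.347 to 0.639 TPM in KPC mice, a fold of 1.02 (0.688 to 1.51).

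The natural anticoagulants showed 1 member, Pros1, higher at an unadjusted p under 0.05. Pros1, protein S, stood at 29.7, 31.8, 34.8, 35.3 and 41.5 TPM in sham mice and at 49.5, 33.02, 41.8, 61.1 and 41.75 TPM in KPC mice. KPC mouse 2 lay within the sham range and the other 4 above it, and the fold was 1.32 (95% interval 1.08 to 1.62) with a limma adjusted p of 0.259. Thbd, thrombomodulin, the most abundant of this role, stood at 61.4, 83.4, 132, 105 and 111 TPM in sham mice and at 61.6, 76.9, 67.3, 104 and 99.8 TPM in KPC mice, a fold of 0.861 (0.662 to 1.12). Procr, the endothelial receptor of protein C, stood at 12.1 ± 2.21 TPM in sham mice and 14.7 ± 2.63 TPM in KPC mice. Its fold was 1.25 (0.954 to 1.63), or 1.16 without KPC mouse 1. Tfpi, the inhibitor of tissue factor, stood at 19.8 ± 4.13 TPM in sham mice and 19.9 ± 4.42 TPM in KPC mice (SD, n = 5 each), a fold of 1.03 (0.803 to 1.32).

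Within libraries, the TPM ratio of F3 to Tfpi was 1.27 to 1.94 in sham and 1.01 to 1.96 in KPC mice, and that of Thbd to Procr was 4.245 to 10.35 in sham and 3.33 to 7.22 in KPC mice. Both ranges overlapped. Endothelial markers summed to 311 to 409 TPM in sham mice and 247 to 430 TPM in KPC mice, with KPC mouse 1 lowest.

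Plasminogen activation genes differed in direction. Plau, urokinase, stood at 34.2, 53.5, 62.9, 44.9 and 61.7 TPM in sham mice and at 68.0, 54.1, 54.9, 79.2 and 57.5 TPM in KPC mice, with overlap. Its fold was 1.27 (95% interval 1.02 to 1.58) with a limma adjusted p of 0.341. Plaur, the urokinase receptor, stood at 5.42 to 8.01 TPM in sham, 7.08 to 12.15 TPM in KPC mice 2 to 5 and 19.97 TPM in KPC mouse 1, a fold of 1.48 (0.965 to 2.26), or 1.23 without that mouse. Plat, tissue plasminogen activator, stood at 28.3 ± 8.26 TPM in sham mice and 30.1 ± 4.84 TPM in KPC mice (SD, n = 5 each), a fold of 1.11 (0.861 to 1.43).

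Anxa2, annexin A2, a surface docking protein for Plat and plasminogen, was the second most abundant member by its sham mean. It stood at 649, 520, 575, 699 and 649 TPM in sham mice and at 550, 490, 281, 457 and 500 TPM in KPC mice. KPC mice 2 to 5 lay below every sham mouse, with KPC mouse 3 lowest, and KPC mouse 1 lay above sham mouse 2. The fold was 0.739 (95% interval 0.564 to 0.969) with a limma adjusted p of 0.329. S100a10, its binding partner, stood at 598 ± 76.2 TPM in sham mice and 514 ± 164 TPM in KPC mice (SD, n = 5 each). Its fold was 0.849 (0.617 to 1.17). KPC mouse 1 was highest of all at 756 TPM. KPC mice 2 to 5 averaged 453 TPM, and their range of 307.1 to 535.2 TPM lay just below the lowest sham value of 535.6 TPM. The ratio of Anxa2 to S100a10 was 0.899 to 1.16 in sham, 0.914 to 1.05 in KPC mice 2 to 5 and 0.727 in KPC mouse 1.

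The 2 serpins outside complement were not different beyond the spread. Serpinf1, pigment epithelium-derived factor, a secreted serpin that does not inhibit proteases, stood at 99.1, 110, 116, 124 and 161 TPM in sham mice and at 108, 97.3, 101, 125 and 103 TPM in KPC mice. Its groups overlapped and the fold was 0.904 (95% interval 0.771 to 1.06). Serpine2, an inhibitor of thrombin and the plasminogen activators, stood at 12.5 to 23.1 TPM in sham mice and 10.1 to 23.2 TPM in KPC mice, a fold of 0.870 (0.615 to 1.23).

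The rest of the complement pathway was read from 37 further genes, 23 of them tested. By limma 0 passed over all genes, while at an unadjusted p under 0.05 9 were higher (7.61% of all genes) and 0 lower (5.91%), and 2 lay higher without overlap (2.75%). These 2 were C5ar2, the second C5a receptor, and Itgb2, the beta chain of the complement receptors 3 and 4. C5ar2 stood at 0.755 ± 0.229 TPM in sham mice and 1.67 ± 0.422 TPM in KPC mice, a fold of 2.24 (95% interval 1.51 to 3.33), and Itgb2 at 11.4 ± 1.46 against 20.2 ± 9.89 TPM (SD, n = 5 each), or 15.8 TPM without KPC mouse 1. Itgam, the alpha chain of complement receptor 3, stood at 10.2 ± 2.41 against 20.2 ± 8.69 TPM, or 16.6 TPM without KPC mouse 1, and Clu, clusterin, which holds back the membrane attack complex, at 130 ± 27.7 against 257.5 ± 103 TPM, or 216 TPM without that mouse. Fcna, ficolin A, a lectin that starts the lectin route, stood at 68.15 ± 17.9 TPM in sham mice and 174 ± 120 TPM in KPC mice, or 123 TPM without KPC mouse 1. The limma adjusted p-values were 0.114 for C5ar2, 0.255 for Itgb2, 0.173 for Itgam, 0.160 for Clu and 0.251 for Fcna.

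Cfd, adipsin, was by far more abundant than any member, at 8508, 13990, 12712, 9163 and 11116 TPM in sham mice and 13132, 14318, 14757, 13870 and 11684 TPM in KPC mice. Sham mice 2 and 3 lay within the KPC range, and the fold was 1.27 (95% interval 0.897 to 1.79). Vsig4, a macrophage receptor for C3b, stood at 0.235 to 0.990 TPM in sham, 0.795 to 2.12 TPM in KPC mice 2 to 5 and 14.1 TPM in KPC mouse 1. Cd93, an endothelial and myeloid surface protein once described as a C1q receptor, stood at 19.98 ± 1.42 TPM in sham mice and 23.6 ± 8.36 TPM in KPC mice (SD, n = 5 each). The plasma lectin genes Mbl1 and Mbl2 were listed at 0 in all 10 libraries.

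The rest of the coagulation pathway was read from 40 further genes, 21 of them tested. By limma 0 passed over all genes, while at an unadjusted p under 0.05 3 of the 21 were higher (7.61% of all genes) and 1 lower (5.91%). Without overlap, 0 lay higher (2.75%). Such counts are too small to compare closely with the shares over all genes. The higher genes included Vwf and Kng2. Vwf, von Willebrand factor, stood at 30.8, 35.2, 21.0, 22.4 and 44.9 TPM in sham mice and 43.05, 32.7, 58.0, 54.4 and 56.7 TPM in KPC mice, a fold of 1.65 (95% interval 1.17 to 2.34) with a limma adjusted p of 0.252. Kng2, a kininogen, stood at 6.26 ± 0.971 TPM in sham mice and 14.2 ± 9.64 TPM in KPC mice, or 10.15 TPM without KPC mouse 1. Ggcx, the enzyme that carboxylates vitamin K-dependent factors such as F7, F10 and Pros1, was the 1 lower gene. It stood at 16.8 ± 1.97 TPM in sham mice and 13.4 ± 2.64 TPM in KPC mice (SD, n = 5 each). The KPC mean was 14.5 TPM without KPC mouse 1, the lowest at 8.95 TPM. Gas6, a relative of protein S, stood at 124 to 652 TPM in sham mice and 279 to 722 TPM in KPC mice. The factors that the liver makes, F2, F9, F11, F12, F13b, Fga, Fgb, Fgg and Plg, reached no more than 0.420 TPM in any library, and F11 and F13b were listed at 0 in all 10.

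**Figure D4:**
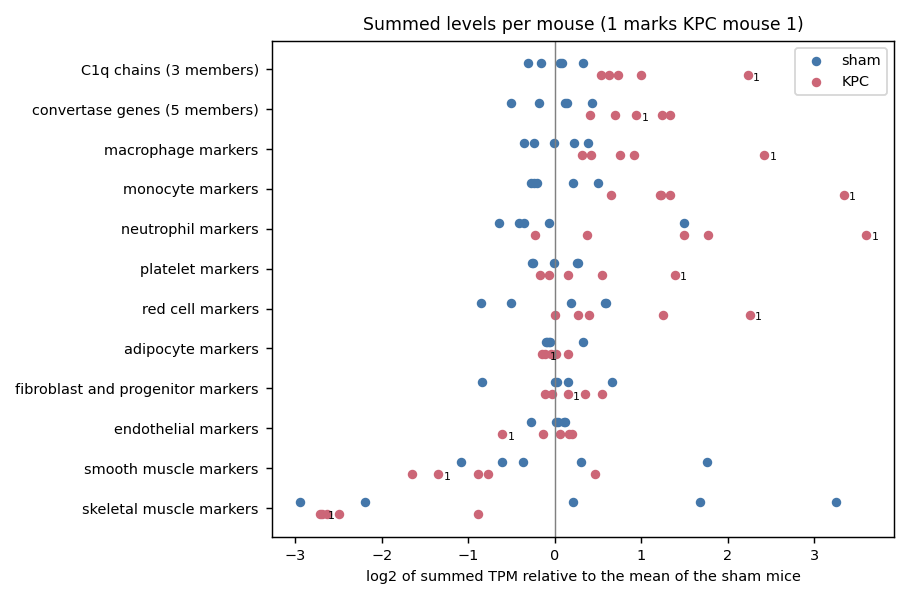
The horizontal axis gives the log2 of the summed TPM per mouse relative to the mean of the sham mice for the C1q chains, the 5 convertase genes and 10 marker lists, with sham mice in blue and KPC mice in red. KPC mouse 1 is highest for C1q, macrophage, monocyte, neutrophil, platelet and red cell sums. C1q and monocyte sums do not overlap between groups, while all the other sums do.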

How the data were processed

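RNA was measured by sequencing in visceral adipose tissue of 5 sham and 5 KPC mice, grouped by the sample descriptions. Per the submitters' processing notes, the authors used Salmon, DESeq and DESeq2 with mm10; tool versions, annotation and strand setting: not given in the sources used here. Therefore overlapping and antisense genes cannot be told apart. The authors deposited normalized counts, handled as a non-negative signal, and TPM. For the best step per library, only 31.1% to 47.3% of low values (up to 30) fell within 0.05 of whole numbers, so no count model was used. Separately, log2(normalized count + 1) was fitted by limma (3.58.1, R 4.3.3; two-sided, variance trend on) for 14203 genes averaging 10 or more, with Benjamini-Hochberg adjustment across them all and a threshold of 0.05. The median SE of a log2 difference was 0.172. The fit was tested on simulated data.

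The members and lists were chosen with earlier results of these data known. Values by mouse are given for members with an unadjusted p under 0.05 or no overlap, the most abundant of each role, and a fixed few; of the further pathway genes, up to 4 per list with the smallest p and a fixed set. The terminal and liver-made genes at or near 0, C8g, Itgb2, Cd55b, C1rb and C1s2 were named after their values were seen. C5 was matched under its symbol Hc; C4a and Klkb1 were not analysed here, and some genes of the wider lists are not reported here. Alternatives changed the pseudocount, filter, unit, normalization, variance model, pairing and mice.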

Additional observations from a re-analysis of the deposited data

Results flagged for a closer look

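Of 64 groups of 5 mice (32 genes in 2 groups), 9 had a mouse far from the other 4 on the log2 scale, by a gap of over 0.71 of the group's range; chance flags about 1 in 20 groups. KPC mouse 1 accounts for 5. Its TPM was 982 for C1qa (others 298 to 397), 849 for C1qb (247 to 329), 258 for Cfp (69.4 to 103) and 4.04 for F10 (0.695 to 1.05), and it was lowest for Masp1 at 0.0383 (0.107 to 0.156). Sham mouse 5 was highest for F3 at 47.5 TPM (others 23.8 to 28.2), Pros1 at 41.5 TPM (29.7 to 35.3) and Serpinf1 at 161 TPM (99.1 to 124), and it also had the highest muscle marker sums, whose part was not tested. Sham mouse 2 was lowest for C7 at 0.862 TPM (1.31 to 1.76).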

How the results depend on the processing

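Each result was recomputed under 21 alternatives. Members called higher numbered 0 in all but 1, leaving out KPC mouse 1, and called lower 0 in all. Leaving out 1 mouse at a time, members called higher ran from 0 to 4, members lower at an unadjusted p under 0.05 from 1 to 2, and higher from 14 to 18. Members whose groups did not overlap ran from 7 to 13 with KPC higher and from 0 to 1 with KPC lower. The lower gene was Anxa2 without KPC mouse 1 and Cd55 without KPC mouse 2. The further complement genes that were lower ran from 0 to 1 and the further coagulation genes that were lower from 0 to 1. With all mice, 1 further complement gene was lower with a pseudocount of 5, with no filter, on log2(TPM + 1), on log2(TPM + 0.1), after quantile normalization, without the variance trend and with the block by first title number. The further coagulation genes that were lower numbered 0 without the variance trend and with the replicate block.

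Of the members, 4 near 0 changed sign, C6, F3, F5 and Tfpi. Leaving out 1 mouse, their log2 differences ran from -0.125 to 0.0601 for C6, -0.169 to 0.0572 for F3, -0.114 to 0.1505 for F5 and -0.0682 to 0.118 for Tfpi. F5 was -0.00704 on log2(TPM + 1), -0.00895 on log2(TPM + 0.1) and -0.0255 after quantile normalization, and Tfpi was -0.0113 with the block by first title number. F10 was 0.871 on log2(TPM + 1), which compresses low values. The causes of these shifts were not tested.

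Deviations of same-numbered sham and KPC mice correlated at 0.00505 to 0.191, over 0.1 in 2 of 5 pairs. So few pairs cannot tell whether same-numbered mice shared more than a number. With the replicate block, 17 members were higher and 2 lower at an unadjusted p under 0.05, and 0 passed after adjustment by limma. The low counts of F10 and Masp1 and the 5 mice a group limit what could be detected. Whether sham and KPC mice differed in time, cage or batch cannot be told apart here.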

Other observations

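The 3 further pathway genes here were named after their values were seen, and Cfi and Serpinb2 were highest in KPC mouse 1. Cfi, the protease that cuts C3b and C4b, stood at 0.295 to 1.30 TPM in sham mice, 0.6985 to 2.62 TPM in KPC mice 2 to 5 and 12.3 TPM in KPC mouse 1. Serpinb2, the plasminogen activator inhibitor PAI-2 of macrophages, stood at 0.0340 to 0.526 TPM in sham mice, 0.0690 to 1.44 TPM in KPC mice 2 to 5 and 9.35 TPM in KPC mouse 1. F2rl2, a thrombin receptor too low to test, stood at 0.0233 to 0.163 TPM in sham mice and 0.164 to 0.198 TPM in KPC mice. Across the 32 tested members, KPC mouse 1 was the highest of all 10 mice for 13 and KPC mouse 4 for 7, while sham mouse 1 was the lowest for 11 and sham mouse 4 for 8.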
